A study of Mus musculus with 30 samples.

Results

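The immunoglobulin variable (V) segments were followed in the ventral prostate (VP) of C57BL/6 mice, in RNAseq counts per gene. Members were the genes whose symbol starts with Ighv (heavy chain), Igkv (kappa light chain) or Iglv (lambda light chain) and that held at least 50 counts when the 30 mice were summed, and they were thus chosen by their summed count, which is given only as a description. Of the 39179 gene identifiers in the count tables, 214 carried such a symbol and 174 met the threshold, of which 84 were heavy, 87 kappa and 3 lambda segments. Another 12 had no count in any mouse and 28 had between 1 and 49. Just inside the threshold stood Ighv1-62-3 with 69 counts and Ighv2-7 with 56, and just outside it stood Igkv4-83 with 45 and Igkv8-26 with 44. The male mice received, from weaning on, a normolipidic diet whose lipid source was linseed oil (LO, rich in ω-3 fatty acids), soybean oil (SO, rich in ω-6 fatty acids) or lard (PF, rich in saturated fatty acids), for 12 or 32 weeks, with 5 mice in each of the 6 groups and 1 library per mouse. All groups shared the strain and the base diet, no mouse was measured at both times, and the mice at 32 weeks were older as well as longer on the diet, so that age and time on diet cannot be told apart. The labels give no litter, cage or date, and the p-values below measure the spread between these mice.

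Each developing B cell joins a V segment to a joining segment, with a diversity segment between them in the heavy chain, and its descendants carry the same joined gene. Reads on V segments therefore describe which segments the B lineage cells of a tissue use, weighted by how much immunoglobulin RNA each cell holds, and plasma cells hold far more of it than resting B cells. In a gland, antibody linked by the joining chain (Jchain) is carried across the epithelium into the secretion by the polymeric immunoglobulin receptor (Pigr). In bulk tissue, fewer cells of a type and less RNA per cell cannot be told apart, and counts per segment do not show which heavy chain was paired with which light chain in a cell.

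The sequences below are shown because the values turn on these segments and on how far they can be told apart. Each is the last 90 coding bases of a segment, 5′ to 3′, from the GENCODE M21 transcripts of build GRCm38. The joined part of the antibody gene begins at or near the end of the segment. Capitals mark the codon of the cysteine that ends framework 3. A script took it as the cysteine codon (TGT or TGC) that follows a codon for tyrosine and then a codon for tyrosine or phenylalanine near the end of the coding sequence. The first 2 sequences belong to a heavy and a kappa segment whose shares moved together over the mice. The other 4 form 2 pairs of close relatives, Iglv1 with Iglv2 (96.9% identical at best alignment) and Igkv1-110 with Igkv1-117 (97.2%).
Ighv11-2, chr12:114048241-114048330, minus strand: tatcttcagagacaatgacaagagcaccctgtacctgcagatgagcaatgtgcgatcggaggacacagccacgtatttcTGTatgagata
Igkv14-126, chr6:67896553-67896642, plus strand: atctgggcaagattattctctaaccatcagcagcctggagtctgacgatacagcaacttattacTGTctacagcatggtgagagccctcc
Iglv1, chr16:19085017-19085106, minus strand: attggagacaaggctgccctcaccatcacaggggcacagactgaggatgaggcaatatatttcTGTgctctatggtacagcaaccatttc
Iglv2, chr16:19260401-19260490, minus strand: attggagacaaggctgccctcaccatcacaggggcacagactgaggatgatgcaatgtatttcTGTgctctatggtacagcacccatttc
Igkv1-110, chr6:68271178-68271267, plus strand: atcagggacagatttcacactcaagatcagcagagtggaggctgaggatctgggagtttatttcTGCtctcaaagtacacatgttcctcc
Igkv1-117, chr6:68121738-68121827, plus strand: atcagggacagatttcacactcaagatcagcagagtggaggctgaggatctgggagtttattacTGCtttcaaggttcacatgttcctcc

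After the cysteine codon the germline Igkv14-126, Igkv1-110 and Igkv1-117 sequences ran on for 23 bases, both lambda sequences for 24 and the Ighv11-2 sequence for 8. Across the members, 76 had another V segment at an identity of at least 95%, and 66 shared at least 1 window of 100 bases with another V transcript. For Igkv6-20 and Igkv6-29 over 50% of such windows were shared (55.8% each), so that their counts are uncertain. Iglv1, Igkv2-137 and Ighv1-5 overlap another annotated gene. Ighv11-2 stood apart from the other heavy segments, its closest relative being Ighv4-1 at 76.9% identity, and Igkv14-126 was closest to Igkv14-111 at 91.5%. Reads that matched more than 1 place were not counted per gene in the deposited tables, where they made up 16.0 to 20.3% of all read pairs of a mouse.

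The 30 libraries held 27590631 to 41301707 counts on genes. Of these, 1646 to 109802 per mouse fell on the V segments, 866450 in all. The tissue label was checked against its markers: the secreted ventral prostate proteins Sbp and Spink1 stood at 90948 to 239102 and 25038 to 70811 CPM (counts scaled by the library's total on genes). The seminal vesicle genes Svs2, Svs4, Svs5 and Pate4 were at 0 in 27 to 29 mice each.

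The summed level of the V segments was low in LO and SO mice at 12 weeks and higher in the same diets at 32 weeks, while PF mice spread widely at 12 weeks. In LO mice 1 to 5 at 12 weeks the summed V level was 133, 73.1, 155, 204 and 162 CPM. In SO mice at 12 weeks it was 56.7, 100, 111, 97.3 and 130 CPM. In PF mice at 12 weeks it was 213, 1027, 1441, 40.4 and 85.8 CPM. PF mice 2 and 3 thus held the highest levels at 12 weeks, and PF mouse 4 held the lowest of all 30 mice. At 32 weeks the level was 3223, 1890, 3980, 292 and 2968 CPM in LO mice. In SO mice at 32 weeks it was 227, 1234, 1970, 1388 and 148 CPM. In PF mice at 32 weeks it was 610, 1404, 621, 942 and 1875 CPM. The times did not overlap in LO (204 CPM at most at 12 weeks against 292 at least at 32 weeks) or in SO (130 against 148), and they overlapped in PF. Group means were 145 ± 48.1 and 2471 ± 1429 CPM in LO, 99.0 ± 26.8 and 993 ± 786 in SO and 561 ± 634 and 1090 ± 545 in PF at 12 and 32 weeks (SD, n = 5 each). The 3 diets overlapped at both times. These sums, and the shares and numbers below, were taken over members chosen with results of these data known and are given without a test.

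**Figure D1:**
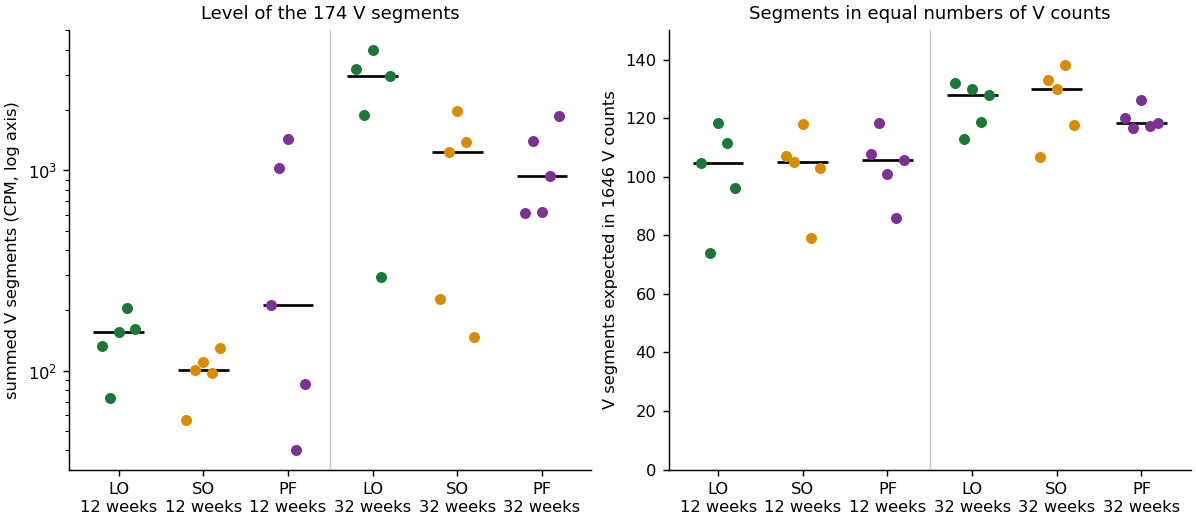
Per mouse values in the 6 groups of 5 mice, as points, with group medians as lines: summed V level in CPM on a log axis (left) and number of V segments expected when each mouse is thinned to 1646 V counts (right). LO and SO mice at 12 weeks sit between 56.7 and 204 CPM, and in each of these 2 diets every mouse at 12 weeks is below every mouse at 32 weeks.

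The number of segments detected also differed between the times. A segment with at least 1 count was called detected, and 23 members were detected in all 30 mice while 22 were found in fewer than 15, the rarest in 5. At 12 weeks 121, 82, 136, 135 and 119 segments were detected in LO mice, 109, 115, 132, 91 and 114 in SO mice and 121, 158, 151, 86 and 116 in PF mice. At 32 weeks 170, 159, 167, 146 and 168 were detected in LO mice, 131, 162, 168, 169 and 133 in SO mice and 153, 163, 158, 157 and 166 in PF mice. The range was thus 82 to 158 at 12 weeks and 131 to 170 at 32 weeks. Members were chosen by counts summed over all mice, to which the mice at 32 weeks gave more. Part of this difference may thus be built in, which thinning does not remove. Depth also sets part of this difference, so each mouse was also thinned to 1646 V counts, the lowest sum of the 30 mice. At that depth 73.9 to 118 segments were expected at 12 weeks (median 105) and 107 to 138 at 32 weeks (median 120). Thinned group means were 101 ± 17.2 and 124 ± 8.21 in LO, 102 ± 14.3 and 125 ± 12.7 in SO and 104 ± 11.8 and 120 ± 3.90 in PF at 12 and 32 weeks (SD, n = 5 each), and the diets overlapped at both times.

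The use of the detected segments was uneven in every mouse. The effective number of segments (the exponential of the Shannon entropy of the shares, that is, how many equally used segments would give the same evenness) was 27.1 to 66.0 at 12 weeks with a median of 49.3. At 32 weeks it was 33.7 to 72.7 with a median of 59.6. The leading segment of a mouse took 4.87 to 21.2% of its V counts at 12 weeks and 5.28 to 24.0% at 32 weeks. The ranges of the 2 times overlapped in both measures.

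Heavy segments took 23.7 to 38.1% of the V counts of a mouse. Within the heavy chain locus on chromosome 12, the Ighv1 family, with 41 members, took on average 37.3% of the heavy counts, followed by Ighv6 with 12.6% over 4 members. The Ighv11 family took 9.68% through a single member, Ighv11-2, with 0.526 to 32.2% between mice. Ighv7 followed with 8.02% and Ighv5 with 7.50%. Within the kappa locus on chromosome 6, Igkv1 took 19.1% of the kappa counts over 8 members, Igkv14 took 15.3% over 4, Igkv4 took 14.2% over 23 and Igkv8 took 9.05%. Of the lambda counts, Iglv1 took 62.2%, Iglv2 took 32.5% and Iglv3 took 5.21%. These are shares of counts, means over the 30 mice with equal weight, and the annotated exons of the members were 338 to 501 bases long. Kappa segments made up 79.4 to 96.6% of the light chain V counts at 12 weeks and 60.3 to 96.6% at 32 weeks. The 60.3% belonged to LO mouse 2 at 32 weeks, and the lowest value of the other mice was 79.4%.

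The 10 leading members by mean share together held 34.6 ± 6.93% of the V counts of a mouse (SD, n = 30). Igkv14-126 (chr6:67896172-67896642, plus strand) led with 7.79 ± 4.96% and ranged from 1.70% to 22.2%. Iglv1 (chr16:19085017-19085500, minus strand) followed with 4.94 ± 4.39% and reached the largest share of any segment in any mouse, 24.0% in LO mouse 2 at 32 weeks (16107 counts, exact 95% binomial interval 23.7 to 24.3%, which covers counting error only). Igkv1-110 (chr6:68270485-68271267, plus strand) held 3.99 ± 2.20% and its close relative Igkv1-117 (chr6:68121046-68121827, plus strand) held 3.99 ± 3.44%. Ighv11-2 (chr12:114048241-114048812, minus strand) held 2.96 ± 2.18% and was the highest heavy segment. The other 5 were Igkv10-96 with 2.44 ± 1.62%, Igkv1-135 with 2.25 ± 2.18%, Iglv2 with 2.23 ± 1.41%, Ighv6-3 with 2.11 ± 1.95% and Igkv3-2 with 1.85 ± 2.94%. For Igkv3-2 the SD was larger than the mean, since 13.0% was reached in LO mouse 4 at 12 weeks and 10.7% in SO mouse 4 at 32 weeks. Counted per kilobase of exon, 9 of these 10 stayed among the first 10, and Igkv14-126 stayed first.

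**Figure D2:**
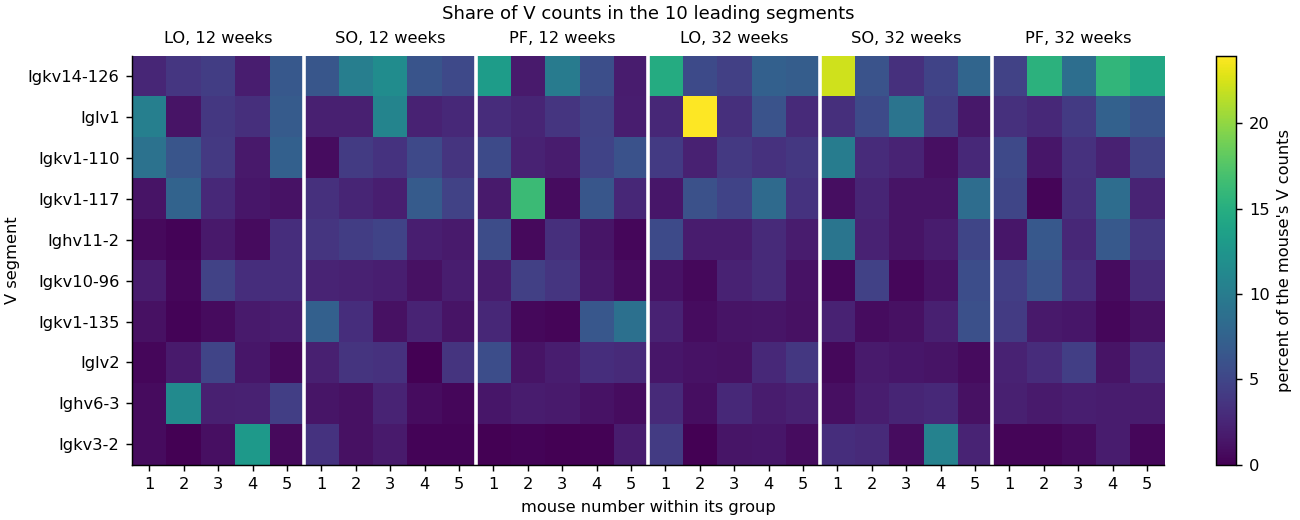
Share of each mouse's V counts, in percent by colour, in the 10 members with the highest mean share (rows), for mice 1 to 5 of each group (columns). The brightest cells are Iglv1 in LO mouse 2 at 32 weeks (24.0%) and Igkv14-126 in SO mouse 1 at 32 weeks (22.2%), and Igkv14-126 is the row with high cells in the most mice.

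Mice differed in which segment led. Igkv14-126 led all V segments in 10 of 30 mice, 3 at 12 weeks and 7 at 32 weeks, of which 4 were PF mice. Igkv1-117, Igkv1-135 and Iglv1 led in 3 mice each, the 3 Igkv1-135 mice all at 12 weeks, and Igkv1-110 and Igkv3-2 led in 2 each. Within the heavy chain Ighv11-2 led in 8 mice, 2 at 12 weeks and 6 at 32 weeks. Ighv6-6 and Ighv7-3 led the heavy chain in 3 mice each, and Ighv1-53, Ighv4-1 and Ighv6-3 in 2 each. Within kappa, Igkv14-126 led in 10 mice, Igkv1-117 in 4, Igkv1-110 and Igkv1-135 in 3 each and Igkv3-2 in 2. Within lambda, Iglv1 led in 21 mice and Iglv2 in 9. The mean share of Igkv14-126 of all V counts was 6.10 ± 3.69% at 12 weeks and 9.49 ± 5.59% at 32 weeks (SD, n = 15 each), and that of Ighv11-2 was 2.27 ± 1.74% and 3.65 ± 2.41%, differences smaller than the spread between mice in both segments.

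Ighv11-2 and Igkv14-126 were high in the same mice. In mice, the heavy chain of Ighv11-2 joined with the light chain of Igkv14-126 is the best known antibody of B-1a cells, a self-renewing B cell type of the body cavities, and it binds phosphatidylcholine, a lipid of cell membranes. The pair was looked at because of that background and with the values known. The Ighv11-2 share of heavy V counts was 2.10, 0.526, 5.01, 2.32 and 9.34% in LO mice 1 to 5 at 12 weeks, and the Igkv14-126 share of kappa and lambda V counts was 3.64, 5.99, 6.54, 2.88 and 9.83%. In SO mice at 12 weeks the heavy share was 13.2, 14.9, 17.0, 6.61 and 5.58% and the light share 8.91, 14.5, 16.3, 8.88 and 7.65%. In PF mice at 12 weeks the heavy share was 16.6, 1.86, 10.3, 4.37 and 1.42% and the light share 19.9, 2.55, 14.5, 8.32 and 2.66%. In each of these groups the mouse with the highest Ighv11-2 share was also the mouse with the highest Igkv14-126 share. At 32 weeks the heavy share was 16.6, 5.62, 5.33, 10.2 and 5.68% in LO mice and the light share 21.9, 7.97, 6.92, 10.2 and 10.5%. In SO mice at 32 weeks the heavy share was 32.2, 6.02, 3.46, 6.59 and 17.9% and the light share 31.2, 9.87, 5.28, 6.65 and 10.8%. In PF mice at 32 weeks the heavy share was 6.30, 21.1, 8.95, 21 and 12.4% and the light share 6.19, 22.4, 12.3, 23.1 and 20.9%. SO mouse 1 at 32 weeks, where both shares were highest, had the second lowest summed V level at that time (227 CPM).

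Over the 30 mice the 2 shares had a Pearson r of 0.918 and a Spearman rho of 0.913, and r was 0.912 within 12 weeks and 0.907 within 32 weeks (15 mice each). Without the 2 mice farthest from the median Ighv11-2 share r was 0.865. Among the 90 light chain segments Igkv14-126 was the one whose share was most like that of Ighv11-2 by r, and among the 84 heavy segments Ighv11-2 was the one most like Igkv14-126. The points share their library and its V total, and these correlations are given as a description. A 2nd pair known from phosphatidylcholine-binding B-1a cells, Ighv12-3 with Igkv4-91, had lower shares, at most 4.04% of heavy and 3.14% of light V counts. Its r was 0.674 and its rho 0.505 over the 30 mice, and r was 0.432 without the 2 farthest mice. Ighv7-1 and Igkv7-33, a pair known from antibodies to phosphorylcholine, had an r of -0.0170 and a rho of 0.00879. Its rho was -0.349 within 12 weeks and 0.486 within 32 weeks. Igkv7-33 was near the floor, with a median of 0.0207% of the kappa counts, so these values cannot show whether the 2 shares go together.

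**Figure D3:**
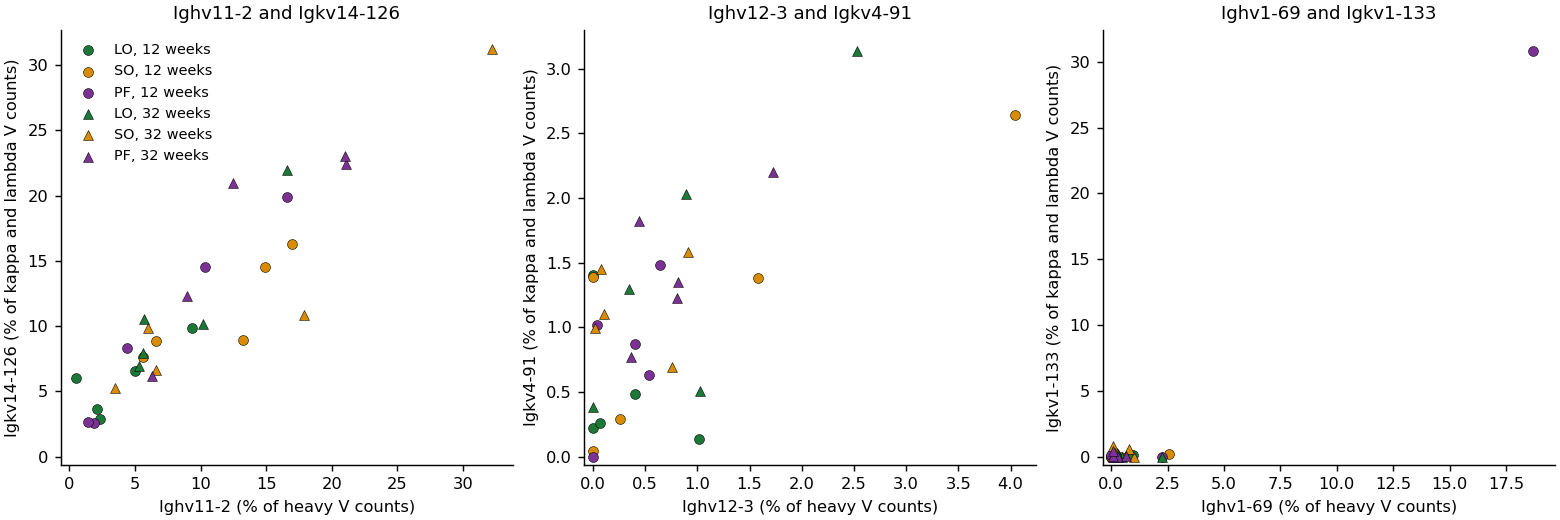
Share of heavy V counts in a heavy segment (x axis, percent) against the share of kappa and lambda V counts in a light segment (y axis, percent), 1 point per mouse, circles at 12 weeks and triangles at 32 weeks, coloured by diet. The Ighv11-2 and Igkv14-126 shares rise together over the 30 mice (r 0.918), those of Ighv12-3 and Igkv4-91 are lower and more scattered, and those of Ighv1-69 and Igkv1-133 are high in PF mouse 3 at 12 weeks alone.

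Several large shares belonged to single mice. Across the members, 30 reached 5% of the V counts in at least 1 mouse and 13 reached 10%. In PF mouse 3 at 12 weeks Igkv1-133 took 21.2% of the V counts, against a median of 0.0231% in the other mice, and Ighv1-69 took 18.7% of the heavy counts, against a median of 0.240%. The r of 0.978 between these 2 segments fell to -0.0635 without that mouse. In the same mouse Ighv1-22 took 16.1% of the heavy counts, against a median of 0.842%, and its r with Igkv1-133 was 0.911 (-0.197 without that mouse). Igkv1-99 took 3.58% of the light counts there, against a median of 0.0222%, so these shares do not single out 1 heavy and light pair. In SO mouse 4 at 12 weeks Ighv6-6 took 39.8% of the heavy counts and Igkv12-46 took 27.1% of the light counts, and their r was 0.956 with that mouse and 0.649 without it. In PF mouse 2 at 12 weeks Ighv3-1 took 25.2% of the heavy counts and Igkv1-117 took 26.1% of the kappa counts. In LO mouse 2 at 32 weeks Ighv2-9 took 37.2% of the heavy counts, in the mouse where Iglv1 took 24.0% of all V counts. In LO mouse 5 at 32 weeks Igkv2-112 took 9.97% of the V counts, against a median of 0.246% in the other mice. These shares stood far above the median of the other mice for the same segment. Igkv1-133, Igkv1-99, Ighv1-69, Ighv1-22, Igkv12-46, Ighv3-1 and Ighv2-9 were named after their values were seen.

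The overlap of segment use between mice had similar medians within groups and between them. The overlap of 2 mice was measured with the Morisita-Horn index over the 174 shares, which is 0 for no shared segment and 1 for the same shares. Its median was 0.527 over the 60 pairs of mice of a group, 0.536 over the 150 pairs of the same time and different diets and 0.518 over the 225 pairs of different times. By group the median was 0.424 in LO, 0.521 in SO and 0.387 in PF at 12 weeks, and 0.590, 0.534 and 0.726 at 32 weeks. The group with the most alike mice was thus PF at 32 weeks, where Igkv14-126 led in 4 of 5 mice. The pair of mice with the highest overlap was LO mouse 1 and PF mouse 5 at 32 weeks, at 0.884. Pairs share mice, so these are descriptions.

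The diets were compared within each time, which is the comparison the study was built on. At 12 weeks 104 of the 174 members passed the filter on low counts. The filter looked at the 3 diets of a time together, so a segment could pass through the diet where it is high. With 2 diets alone at 12 weeks, 54 members passed in LO and SO, 75 in PF and SO and 81 in PF and LO. Many of the 104 thus passed only with the PF mice added, and part of their lean to PF may be built in. At 32 weeks 146, 135 and 140 passed in the same pairs of diets. With edgeR's quasi-likelihood test no member was called in PF against SO, PF against LO or LO against SO at an adjusted p under 0.05, and no gene of the 15873 tested was called either (0% of genes in each comparison). Against SO, 97 of the 104 tested members had a fold change above 0 in PF, with a median log2 fold change of 1.93, and 42 (40.4%) had an unadjusted p under 0.05, against 7.99% of all genes. Against LO, 84 were above 0 in PF, the median was 1.60 and 32 (30.8%) had an unadjusted p under 0.05, against 9.24% of all genes. In LO against SO 67 were above 0, the median was 0.60 and 6 (5.77%) had such a p, against 4.28% of genes. DESeq2's Wald test called 7 members in PF against SO, 2 in PF against LO and 0 in LO against SO, where it called 1.24%, 0.683% and 0% of genes. Without PF mouse 5 edgeR called 3 members in PF against SO, in a fit that called 0.818% of all genes. The members were measured in the same mice and are not independent of each other. Members are thus not replicates of a diet, and their counts and shares, here and below, are descriptions. Both comparisons of PF leaned on PF mice 2 and 3. Against SO the median fell to 1.44 without PF mouse 2 and 1.31 without PF mouse 3, with 28 and 25 members at an unadjusted p under 0.05. Against LO it fell to 0.89 and 0.87, with 21 and 20 such members.

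The member with the smallest p against both other diets was Iglv3, a lambda segment. It passed the filter on low counts through the PF mice, where it is high, so its values are given as a description. Its level was 3.48, 2.56, 10.5, 0.368 and 0.705 CPM in PF mice 1 to 5 at 12 weeks. It was 0.153, 0.0283, 0.135, 0.161 and 0.215 CPM in LO mice and 0, 0.185, 0.478, 0.0286 and 0.208 CPM in SO mice. Every PF mouse was above every LO mouse, and PF mouse 4 lay within the SO range. The log2 fold change was 4.67 (SE 0.92, adjusted p = 0.241) against LO and 4.20 (SE 0.89, adjusted p = 0.138) against SO with edgeR. In LO against SO the smallest p belonged to Igkv4-57-1, at 3.36, 2.40, 3.68, 0.107 and 0 CPM in LO and 0.0313, 0.0618, 0.0299, 0.143 and 0.337 CPM in SO. High levels were thus found in 3 of the 5 LO mice, and the log2 fold change was 3.85 (SE 1.25, adjusted p = 0.999).

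At 32 weeks 152 members passed the filter, and again edgeR called no member and no gene of 16218 in any pair of diets (0% of genes in each). In PF against LO 30 of the 152 tested members had a fold change above 0, the median log2 fold change was -1.18, and 33 (21.7%) had an unadjusted p under 0.05, against 8.6% of all genes. In LO against SO 128 were above 0, the median was 1.11 and 37 (24.3%) had such a p, against 3.48% of genes. In PF against SO 72 were above 0, the median was -0.10 and 20 (13.2%) had such a p, against 10.8% of genes. This last median turned direction with single mice, being 0.07, 0.49 and 0.17 without SO mouse 2, 3 or 4, and with SO mouse 3 left out 96 members were above 0. In LO against SO the number with such a p was 23 without LO mouse 3, and in PF against LO it was 50 without LO mouse 4. The median fold changes thus pointed to LO at 32 weeks and to PF at 12 weeks, without a segment past the threshold in edgeR. The summed V levels of the diets overlapped at both times. LO mouse 4 at 32 weeks lay below every PF mouse of that time, and PF mouse 4 at 12 weeks was the lowest of all mice. DESeq2 called 5 members in PF against LO, all lower in PF, and 0 in the other comparisons at 32 weeks, where it called 0.536%, 0.828% (PF against SO) and 0.0433% (LO against SO) of genes.

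In PF against LO at 32 weeks the smallest p belonged to the heavy segment Ighv1-59. Its level was 0.218, 0.413, 0.251, 0.0262 and 0.0814 CPM in PF mice and 2.74, 0.591, 1.09, 0.499 and 7.93 CPM in LO mice, which did not overlap. The log2 fold change was -3.56 (SE 0.95, adjusted p = 0.335) with edgeR. In LO against SO it was Ighv1-74, at 4.78, 18.5, 10.1, 0.562 and 1.69 CPM in LO and 0.137, 0.412, 0.934, 1.40 and 0.305 CPM in SO. Only LO mouse 4 lay within the SO range, and the log2 fold change was 3.43 (SE 0.86, adjusted p = 1.0). In PF against SO it was Igkv3-1, at 0.0242, 0.0590, 0.503, 0 and 0.0271 CPM in PF and 0.996, 7.61, 3.11, 0.130 and 0 CPM in SO, and the log2 fold change was -4.25 (SE 1.22, adjusted p = 0.323). The groups overlapped, since SO mice 4 and 5 were within the PF range.

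The 2 times were compared within each diet, with all 6 groups in 1 fit, where 156 of the 174 members passed the filter. Some of the tested V segments rose in LO and in SO, most did not pass the threshold in either diet, and none was called in PF. In LO 52 members were called, all higher at 32 weeks (33.3% of those tested), where 2.7% of the 16605 genes tested were called and 1.74% were called higher. They were 26 of 78 heavy, 23 of 75 kappa and all 3 lambda segments. Over all tested members the median log2 fold change was 3.97, 154 were above 0, and 133 had an unadjusted p under 0.05, against 20.5% of genes. In SO 46 members were called, all higher (29.5%), where 6.46% of genes were called and 5.25% were called higher. They were 23 heavy, 21 kappa and 2 lambda segments, the median was 3.21 and 110 had an unadjusted p under 0.05, against 19.7% of genes. DESeq2 called 94 members in LO and 69 in SO, where it called 6.48% and 9.14% of genes. In PF 0 members were called with edgeR and 1 with DESeq2, where edgeR called 0.0301% of genes (0.0181% higher) and DESeq2 0.308%. The PF median was 1.30, 125 of 156 were above 0 and 45 (28.8%) had an unadjusted p under 0.05, against 10.2% of genes. Of the 156 tested members 52 passed the filter only with the mice at 32 weeks, where they are high, so that they had to differ and their calls are only a description. Of the 104 that also passed with the mice at 12 weeks alone, 35 (33.7%) were called in LO, where 2.58% of genes passing in that way were called, 28 (26.9%) in SO, against 6.2%, and 0 in PF, against 0.0252%. The medians over these 104 were 3.84, 2.95 and 1.23. With the LO and SO mice at 12 weeks alone only 54 members passed. Many of the 104 thus passed only with the PF mice of that time added. Part of the smaller change in PF may therefore be built in, and the values of these 104 are a description too. In both LO and SO 24 members were called, 46.2% of those called in LO and 52.2% of those called in SO. Some of the 24, Ighv1-42, Ighv1-76 and Igkv3-7 among them, passed the filter only with the mice at 32 weeks. Both diets shared 1 fit, and the share of all genes called in both was not computed. This overlap is therefore only a description.

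The counts of called members rested on few mice. In LO the count was 31, 14, 10 and 29 without LO mouse 1, 2, 3 or 5 at 12 weeks, in fits that called 2.2, 0.603, 0.28 and 2.06% of all genes. It was 14, 92 and 23 without LO mouse 3, 4 or 5 at 32 weeks, where 0.49, 6.22 and 1.11% of genes were called, mouse 4 being the LO mouse with the low V level at that time. In SO it was 16, 21, 27, 12 and 16 without SO mouse 1, 2, 3, 4 or 5 at 12 weeks, where 4.01, 4.8, 4.61, 3.07 and 2.92% of genes were called. It was 28, 23 and 9 without SO mouse 2, 3 or 4 at 32 weeks, where 4.38, 4.54 and 1.35% were called. With only the mice of the diet in the fit, the counts were 15 in LO and 29 in SO, beside 0.362% and 6.68% of genes. The share of all genes called thus moved with the members' counts. All these calls were higher at 32 weeks, and the direction of the median did not turn.

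**Figure D4:**
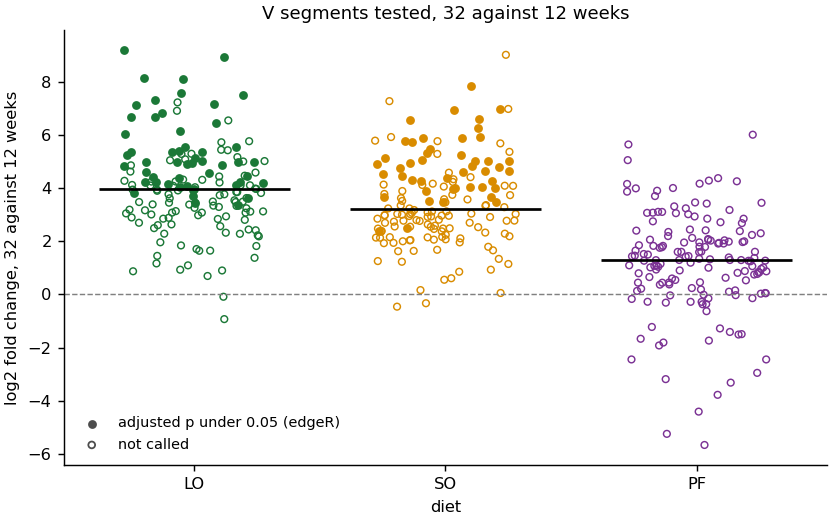
The log2 fold change at 32 against 12 weeks of each of the 156 tested V segments (points, spread sideways at random) in LO, SO and PF, filled where edgeR's adjusted p was under 0.05, with the median as a line. The medians are 3.97 in LO, 3.21 in SO and 1.30 in PF, with 52, 46 and 0 filled points.

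Of the 10 leading members, which were chosen by the same counts, 7 were called in LO, 5 in SO and 0 in PF, beside 2.7%, 6.46% and 0.0301% of all genes and 33.3%, 29.5% and 0% of the tested members. The level of Igkv14-126 was 3.41, 2.77, 6.76, 3.99 and 10.6 CPM in LO mice at 12 weeks and 477, 101, 183, 21.4 and 210 CPM at 32 weeks. The times did not overlap, and the log2 fold change was 4.99 (SE 0.97, adjusted p = 0.0123). In SO the level was 3.63, 10.3, 12.9, 6.07 and 6.82 CPM at 12 weeks and 50.4, 75.3, 65.6, 66.9 and 11.6 CPM at 32 weeks. SO mouse 5 at 32 weeks lay within the range at 12 weeks, and the log2 fold change of 2.56 (SE 0.87) had an adjusted p of 0.0774. In PF it was 28.2, 17.4, 144, 2.33 and 1.57 CPM at 12 weeks and 28.8, 216, 53.6, 148 and 269 CPM at 32 weeks. The PF times overlapped through PF mouse 3 at 12 weeks, and the log2 fold change was 1.86 (SE 0.83, adjusted p = 0.448). Its partner Ighv11-2 was called in LO (log2 fold change 4.92, SE 1.01, adjusted p = 0.0146) and had values of 2.54 in SO (adjusted p = 0.0947) and 1.92 in PF (adjusted p = 0.447).

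Iglv1, Igkv1-110 and Igkv1-135 were called in both LO and SO. The level of Iglv1 was 13.7, 0.904, 6.08, 6.62 and 11.2 CPM in LO mice at 12 weeks and 86.2, 453, 128, 17.9 and 83.9 CPM at 32 weeks. The LO times did not overlap, and the log2 fold change was 4.15 (SE 1.07, adjusted p = 0.0335). In SO the Iglv1 log2 fold change was 3.66 (SE 1.06, adjusted p = 0.0361), and in PF it was 1.62 (SE 0.96, adjusted p = 0.587). The LO call of Iglv1 was lost without LO mouse 2, 3 or 5 of either time (adjusted p 0.0515 to 0.10). Its SO call was lost without SO mouse 1, 2, 4 or 5 at 12 weeks or 2, 3 or 4 at 32 weeks (0.0571 to 0.129). The LO call of Igkv1-110 was lost without LO mouse 2 or 3 at 12 weeks or 3 at 32 weeks (0.0568 to 0.0587), and its SO call without any 1 SO mouse at 12 weeks or mouse 2, 3 or 4 at 32 weeks (0.0652 to 0.10). Igkv1-135, whose log2 fold change was 4.05 (SE 0.67, adjusted p = 0.00634), had the smallest adjusted p of the 10 in LO and was called in SO too (2.38, SE 0.63, adjusted p = 0.0226), where the call was lost without SO mouse 3, 4 or 5 at 12 weeks or 4 at 32 weeks (0.0570 to 0.0956). Igkv10-96 was called in no diet, with log2 fold changes of 2.89 in LO, 3.10 in SO and 0.83 in PF.

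The 3 called members with the largest fold changes in LO were near 0 at 12 weeks. Igkv12-38 and Ighv1-77 passed the filter only with the mice at 32 weeks and are given as a description. Igkv12-38 had no count in any mouse at 12 weeks of this diet and stood at 1.65, 0, 8.37, 0 and 2.62 CPM at 32 weeks. It was high in 3 mice and absent from the counts of 2, and its summed level was at least 133-fold higher against a floor of 3 counts over the group. Its call was lost without LO mouse 2 or 3 at 12 weeks or 3 or 5 at 32 weeks (adjusted p 0.0515 to 0.0912). Ighv1-77 had 1 count in all LO mice together at 12 weeks and 894 at 32 weeks, where its levels were 22.4, 0.0844, 2.90, 0.0312 and 1.76 CPM. The ratio of summed levels was 992 with a counting interval of 178 to 39217. The fitted log2 fold change of 8.97 was 6.78 without LO mouse 1 at 32 weeks and 10.37 without LO mouse 3 at 12 weeks, and LO mouse 4 overlapped the 12-week range. The Ighv1-77 call was lost without LO mouse 3 at 12 weeks (adjusted p = 0.0533). Igkv2-112 was at 0.815, 0.0283, 0, 0.134 and 0 CPM at 12 weeks and at 3.24, 1.38, 38.4, 0.375 and 296 CPM at 32 weeks, and its log2 fold change was 8.16 (SE 1.71, adjusted p = 0.0146). It was 5.48 (adjusted p = 0.0580) without LO mouse 5 at 32 weeks and 10.33 (adjusted p = 0.0221) without LO mouse 1 at 12 weeks, and the call was also lost without LO mouse 3 at 12 weeks (adjusted p = 0.0533). The 296 CPM of LO mouse 5 was the highest value, and LO mouse 4 overlapped the 12-week range.

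In SO the largest fold changes among the called members were those of Igkv3-7, Igkv4-74 and Ighv1-42, which passed the filter only with the mice at 32 weeks and are likewise given as a description. Igkv3-7 held 2 counts in the 5 SO mice at 12 weeks and 648 at 32 weeks, where its levels were 0.103, 1.14, 12.2, 5.91 and 1.07 CPM. The times did not overlap, and the ratio of summed levels was 355 with a counting interval of 97.8 to 2936. Its fitted log2 fold change of 7.85 was 6.89 without SO mouse 3 at 32 weeks and 9.99 without SO mouse 3 at 12 weeks. Igkv4-74 was at 0.0313, 0, 0, 0 and 0.0778 CPM at 12 weeks and at 0, 17.4, 0.249, 1.82 and 0.0915 CPM at 32 weeks. The times overlapped, and the log2 fold change of 7.0 was 4.13 without SO mouse 2 at 32 weeks, which held the 17.4 CPM, and 8.28 without SO mouse 5 at 12 weeks. The Igkv4-74 call was lost without any 1 SO mouse at 12 weeks or mouse 2 or 4 at 32 weeks (adjusted p 0.0517 to 0.190). Ighv1-42 held 3 counts at 12 weeks and 476 at 32 weeks, at 0.137, 2.51, 4.33, 8.15 and 0.0915 CPM, with no overlap of the times and a ratio of 174 (counting interval 59.1 to 845). Its fitted log2 fold change of 6.96 was 6.17 without SO mouse 4 at 32 weeks and 7.94 without SO mouse 3 at 12 weeks. SO mice 1 and 5 at 32 weeks, with the lowest summed V levels of that group, had the lowest levels of Igkv3-7 and Ighv1-42.

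In PF the smallest p belonged to Ighv1-76, which also passed the filter only with the mice at 32 weeks. Its level was 0.245, 0.818, 0.0329, 0.0981 and 0.0271 CPM at 12 weeks and 0.508, 76.2, 10.2, 0.656 and 3.99 CPM at 32 weeks. PF mice 1 and 4 at 32 weeks lay within the 12-week range, and the log2 fold change was 6.02 (SE 1.32, adjusted p = 0.0929).

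The change between the times was also compared between diets, as a difference of log2 fold changes in the same fit. With edgeR no member and no gene was called in any of these 3 comparisons (0% of genes), so a different change in PF was not shown for any segment. For PF less SO the median over the tested members was -1.96 and 37 of 156 (23.7%) had an unadjusted p under 0.05, against 9.49% of genes. For PF less LO the median was -2.71 and 58 (37.2%) had such a p, against 7.79% of genes. For LO less SO the median was 0.58 and 10 (6.41%) had such a p, against 3.33% of genes. Iglv3 had differences of -6.98 (SE 1.53, adjusted p = 0.343) for PF less LO and -4.83 (SE 1.47, adjusted p = 0.237) for PF less SO. For Igkv14-126 they were -3.13 (SE 1.19, adjusted p = 0.561) and -0.70 (SE 1.16, adjusted p = 0.925).

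Some of the constant region genes, which supply the rest of the antibody chains, were called in the same diets as the V segments. Ighm, the constant region of IgM, made up 62.6 to 98.9% of the heavy constant region counts (not corrected for length), Igha, that of IgA, made up 0.48 to 22.1%, and the mouse with the lowest IgM share was PF mouse 2 at 32 weeks, where the Ighg genes held 35.3%. Over the 30 mice the Spearman rho with the summed V level was 0.988 for Ighm, 0.987 for the kappa constant gene Igkc and 0.992 for Jchain. It was lower for Igha, at 0.797 (0.671 within 12 weeks and 0.779 within 32 weeks). Of 8 constant region genes tested over time, 3 rose in LO (Ighm, Igkc and the lambda gene Iglc2), 4 rose in SO (Ighm, Igkc, Ighg1 and Ighg2c) and 0 passed in PF. Beside these, 2.7%, 6.46% and 0.0301% of all genes were called in LO, SO and PF. The Ighm log2 fold change was 4.15 (SE 0.86, adjusted p = 0.0146) in LO, 3.31 (SE 0.83, adjusted p = 0.0168) in SO and 0.57 (SE 0.76, adjusted p = 0.837) in PF. The Ighm call was lost without LO mouse 3 at 12 weeks (adjusted p = 0.0505) and without SO mouse 4 at 32 weeks (adjusted p = 0.0582). The Igkc call was lost without LO mouse 3 at 12 weeks (0.0533). In SO it was lost without mouse 1, 4 or 5 at 12 weeks or 4 at 32 weeks (0.0531 to 0.0752). The Ighg1 call was lost without SO mouse 1 or 4 at 12 weeks or 4 at 32 weeks (0.0506 to 0.0771). Ighg1 was near the floor (median 0.128 CPM, 0 in 7 mice). The Ighg2c call was lost without SO mouse 1, 2, 3 or 4 at 12 weeks or 2 or 4 at 32 weeks (0.0614 to 0.0934). Ighd, Iglc1 and Iglc3 were not analysed here.

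Jchain rose in LO (log2 fold change 3.81, SE 0.81, adjusted p = 0.0153) and SO (3.11, SE 0.79, adjusted p = 0.0188) and had a value of 0.89 in PF (adjusted p = 0.704). Its LO call was lost without LO mouse 2 or 3 at 12 weeks (adjusted p 0.0539 and 0.0533), and its SO call without SO mouse 1 or 4 at 12 weeks or 4 at 32 weeks (0.0506 to 0.0655). Pigr was already high in all mice, at 1761 to 5447 CPM. It rose in SO, where its log2 fold change was 0.66 (SE 0.20, adjusted p = 0.0391), and the value was 0.63 in LO (adjusted p = 0.0679) and 0.05 in PF (adjusted p = 0.958). The SO call was lost without SO mouse 2, 3, 4 or 5 of either time (adjusted p 0.0620 to 0.113). Its rho with the summed V level was 0.650 over the 30 mice, but 0.0714 within 12 weeks and 0.239 within 32 weeks.

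Of the 8 plasma cell genes, 5 rose in LO (Irf4, Jchain, Mzb1, Prdm1 and Sdc1), while 3 rose (Jchain, Mzb1 and Sdc1) and Derl3 fell in SO. Beside these and the lists below, 2.7% of all genes were called in LO and 6.46% in SO. Mzb1, a chaperone of IgM assembly, rose by 2.74 in LO (SE 0.71, adjusted p = 0.0338) and by 2.72 in SO (SE 0.72, adjusted p = 0.0234) on the log2 scale. The LO call was lost without LO mouse 1, 2, 3 or 5 at 12 weeks or 1, 3 or 5 at 32 weeks (adjusted p 0.0574 to 0.106), and the SO call without SO mouse 1, 2, 4 or 5 at 12 weeks or 3 or 4 at 32 weeks (0.0522 to 0.0868). The summed level of this list was 450 to 557 CPM in LO at 12 weeks and 550 to 1533 at 32 weeks, 456 to 506 and 499 to 983 in SO, and 488 to 967 and 694 to 1104 in PF. Xbp1 alone stood at 317 to 438 CPM over all mice, while Mzb1 and Tnfrsf17 had medians of 1.99 and 0.402 CPM. The sum is therefore not a level of plasma cells. Of 7 genes of V segment joining and mutation 2 were tested and 0 were called, Rag1 and Rag2 being at 0 in 25 and 28 mice. Of 3 octamer factor genes, which drive V promoters, Pou2af1 was called higher in LO and SO and Pou2f2 in SO. Of 10 tested survival and homing genes, 1 (Tnfrsf13b) rose in LO and 6 in SO. No gene of these lists was called between diets at either time, where edgeR called 0% of all genes.

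Markers of B cells and of T cells moved with the V segments in SO. Of the 8 B cell genes 6 rose in SO and 0 passed in LO, and of the 6 T cell genes 6 rose in SO and 0 passed in LO. Beside these, 6.46% of all genes were called in SO and 2.7% in LO. The SO share was 1.35% without SO mouse 4 at 32 weeks, and the T cell calls are not given for that fit. The summed B cell list was 2.55 to 31.6 CPM in LO at 12 weeks and 7.18 to 43.3 at 32 weeks, 1.75 to 6.07 and 7.21 to 127 in SO, and 2.55 to 48.4 and 11 to 38.3 in PF. The T cell list was 1.86 to 9.78 and 5.43 to 16.5 CPM in LO, 1.97 to 3.57 and 7.97 to 40.3 in SO, and 3.01 to 11.3 and 5.17 to 15.6 in PF. SO mouse 4 at 32 weeks held the highest B and T cell values, with Ms4a1, a B cell surface protein, at 16.5 CPM against at most 7.04 in the other mice. Without that mouse the Ms4a1 log2 fold change in SO was 2.70 (adjusted p = 0.132), against 3.80 (adjusted p = 0.0212) with it. Without SO mouse 2 or 4 at 12 weeks the adjusted p was 0.0511 or 0.0624. The lymph node and spleen stroma list had 0 of 6 tested genes called in any diet, at 8.87 to 56.2 CPM in SO at 32 weeks and 13.0 to 80.3 in LO, against 10.2 to 22.0 and 10.5 to 23.9 at 12 weeks. Over the 30 mice the rho with the summed V level was 0.827 for Ccl21a, a chemokine of lymph node stroma (0.689 within 12 weeks and 0.829 within 32 weeks), and 0.851 for Ms4a1 (0.761 and 0.618). Of the ventral prostate list Sbp fell in LO (by 0.81 on the log2 scale, adjusted p = 0.041) and SO (by 0.96, adjusted p = 0.01), and the 3 fat genes had none called. The part of these cell types in the V levels was not tested.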

How the data were processed

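Total RNA of the VP of 30 mice was sequenced from stranded, poly(A)-selected libraries. The authors deposited 1 table of raw counts per mouse, read pairs per Ensembl gene. The submitters' processing notes name TopHat, TopHat2, HTSeq and DESeq2 and the build GRCm38.p6, with no versions, and the strand setting of the counting is not given in the sources used here. The labels name TRIzol extraction and the study's methods a silica column, without saying which mice. Rows that name no gene were left out of library sizes and tests (no feature 6.67 to 12.2%, ambiguous 0.831 to 1.18% and not unique 16.0 to 20.3% of pairs). Identifiers were matched to GENCODE M21 (37693 of 39179). Values of a few marker genes are not reported here. The members and gene lists were chosen with earlier results of these data known.

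Counts were tested with edgeR 4.0.16 (R 4.3.3) by quasi-likelihood with filterByExpr and TMM, over all genes, with Benjamini-Hochberg adjustment and an adjusted p under 0.05 as threshold. The diets of a time shared 1 fit, and the times were compared in a fit of all 6 groups. SE is the size of the log2 fold change divided by the square root of F. DESeq2 1.42.0 was the alternative test, and other scalings, filters, fits and left-out mice were tried. The fits were tested on simulated data. Shares, CPM and thinned numbers were computed in Python 3.11.15. Members named were the 10 with the highest mean share, the segments leading a locus in at least 2 mice, up to 3 called members per direction by fold change, or the member with the smallest p where none was called. Binomial intervals are exact, at 95%, and floors are 3 counts. The total of 27590631 to 41301707 counts per mouse sets the precision of low segments.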

Additional observations from a re-analysis of the deposited data

Results flagged for a closer look

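In 90 groups of 5 values (15 measures in 6 groups), 16 values lay far from the other 4 mice of their group, against about 1 in 20 groups by chance. Shares of segments in a mouse are not independent of each other. LO mouse 2 at 32 weeks stood apart in 3 measures, with an Iglv1 share of 24.0% of V counts, a kappa share of 60.3% of light chain V counts and an effective number of 33.7 segments. SO mouse 1 at 32 weeks stood apart with an Igkv14-126 share of 22.2%, which was also its leading share of 22.2%, and an Igkv1-110 share of 10.1%. LO mouse 1 at 32 weeks stood apart in both members of the phosphatidylcholine pair, with 14.8% for Igkv14-126 and 5.40% for Ighv11-2. Igkv3-2 stood apart in 4 mice, with 13.0% in LO mouse 4 and 1.80% in PF mouse 5 at 12 weeks and 10.7% in SO mouse 4 and 1.80% in PF mouse 4 at 32 weeks. Igkv1-117 stood apart in LO mouse 2 at 12 weeks with 7.62% and in SO mouse 5 at 32 weeks with 8.53%. The other 2 values were the Iglv1 share of 10.8% in SO mouse 3 and the effective number of 27.1 segments in SO mouse 4, both at 12 weeks.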

How the results depend on the processing

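Counts of called members depended on the test and on single mice. With DESeq2 the counts were 7 in PF against SO and 2 in PF against LO at 12 weeks, 5 in PF against LO at 32 weeks, and over time 94 in LO, 69 in SO and 1 in PF. Leaving out each mouse in turn gave 10 to 92 called members over time in LO, 9 to 66 in SO and 0 in PF, 0 to 3 in PF against SO at 12 weeks and 0 in the other diet comparisons. Without the mice numbered 1 in every group the LO count was 31 and the SO count 38, and with only the mice of the diet in the fit the counts were 15 and 29. Without the filter on low counts they were 46 and 41, with a robust fit 43 and 42 and with RLE size factors 51 and 46. With a replicate block the counts were 58 in LO, 41 in SO and 0 in PF over time and 0 between diets. Whether the numbers pair the mice cannot be settled from these values. In no comparison did every same-numbered pair correlate above 0.1 (lowest -0.439). Over all genes, the highest mean of same-numbered pairs was 0.199, in PF against LO at 32 weeks. There 4 pairs were above 0.1, and the mean for different numbers was -0.0461. The replicate block is thus a hint from the data only. The block lowered the members with an unadjusted p under 0.05 to 21 in PF against SO and 15 in PF against LO at 12 weeks and, at 32 weeks, to 6 for PF against SO, to 22 for PF against LO and to 18 for LO against SO. The median log2 fold change of PF against SO at 32 weeks turned to 0.03 under the block and to 0.01 with only these diets in the fit. Some PF changes over time near 0 turned direction. Under the block the log2 fold changes were 0.197 for Ighg1 and 1.29 for Igkv1-117, and without the mice numbered 1 that of Pigr was -0.108. Leaving out single mice gave a range of -1.76 to 0.792 for Ighg1, -0.546 to 2.85 for Igkv1-117 (0.0635, 0.155 and 0.276 among them), -0.599 to 0.315 for Ms4a1 (0.146 among them) and -0.0429 to 0.198 for Pigr (-0.0119 and -0.00547 among them). Of all fold changes of named genes under the alternatives, 1176 kept their direction and side of the threshold, 120 lost and 32 gained a call, and 13 turned direction. Over the 30 mice, the median number of segments detected was 141, and 111 with at least 5 counts required. The median effective number was 51.6, and 30.5 by the inverse Simpson index. The median leading share was 10.3%, and 20.5% within its own locus. The comparisons of the change over time between diets were added after seeing the data. The cause of these differences was not tested, and mice with few V counts limit the segments that can be seen.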
